A study of Mus musculus with 72 samples.

Results

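Hypoxia and glycolysis response genes, 10 in number and listed as hypoxia-inducible, were followed in the mouse colon during acute colitis. They were Hif1a, Egln3, Adm, Vegfa, Slc2a1, Hk2, Pdk1, Ero1a, Bnip3 and Ndrg1. The genes were taken from a list of names, with each gene represented by its brightest probe set among those assigned to 1 gene, and all 10 were found and tested among 12534 genes tested of 18193 measured. Ero1a stands in the list under its older symbol Ero1l. The colon of 72 wild type Balb/c mice had been measured on Affymetrix expression arrays, 1 array per mouse, and 64 of these mice had colitis. To provoke colitis, TNBS (trinitrobenzene sulfonic acid, a compound that turns gut proteins into antigens once ethanol has opened the barrier) was given rectally on day 0 at 70 µg per g body weight, and RNA came from pieces cut from the frozen, rolled colon on day 4. Untreated colitic mice (n = 8) received TNBS alone. The other colitic mice were injected before TNBS with a control IgG2a antibody to human CD20 at 10 mg/kg (n = 15), with TNFR-Ig, a soluble TNF receptor fusion protein that binds TNF, at 0.3 mg/kg, which the study's design calls less effective than a higher dose (n = 12), with mP2D10, an antibody to the TNF family cytokine TWEAK, at 10 mg/kg (n = 14), or with TNFR-Ig and mP2D10 together at those doses (the combination, n = 15). Naive mice (n = 8) received no TNBS, and the labels name no ethanol control for them. TNFR-Ig mice received no control antibody, so that TNFR-Ig and control antibody mice differ in both agents. The study was run as 2 experiments, numbered 7 (34 arrays) and 10 (38 arrays), and all naive mice belong to experiment 10. The labels give no age or sex.

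Cells sense oxygen through hypoxia-inducible factors (HIFs). With oxygen present, prolyl hydroxylases of the EGLN family mark the alpha subunit of HIF for destruction, and with little oxygen the subunit persists, pairs with ARNT and binds DNA at a short core motif near its target genes. HIF activity is thus set largely at the protein level, which an array of RNA does not read. Its targets bring in glucose and break it down (Slc2a1, Hk2), limit the use of pyruvate in mitochondria (Pdk1), remove mitochondria (Bnip3), raise vessel growth and dilation (Vegfa, Adm) and dampen HIF itself (Egln3). The colon surface lies next to an oxygen-poor lumen, and HIF is known there for upholding the epithelial barrier.

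The HIF core motif is shown in the promoters of 4 genes: Ero1a, Adm and Egln3, which rose in colitis and were lower with the combination, and Hk2, which fell in colitis. Each line holds the 250 bases before the RefSeq start of transcription, 5′ to 3′ on the gene's own strand, in build GRCm38.p6, with ACGTG and GCGTG on either strand in capitals (CACGT and CACGC are these motifs read from the opposite strand). They lie at chr14:45318573-45318822 (minus strand, Ero1a), chr7:110627407-110627656 (plus strand, Adm), chr12:54203875-54204124 (minus strand, Egln3) and chr6:82774455-82774704 (minus strand, Hk2).
Ero1a: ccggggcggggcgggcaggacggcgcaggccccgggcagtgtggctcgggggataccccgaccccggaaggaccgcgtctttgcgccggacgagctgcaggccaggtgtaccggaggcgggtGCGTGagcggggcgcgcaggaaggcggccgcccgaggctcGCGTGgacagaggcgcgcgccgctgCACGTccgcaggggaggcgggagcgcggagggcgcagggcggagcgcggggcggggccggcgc
Adm: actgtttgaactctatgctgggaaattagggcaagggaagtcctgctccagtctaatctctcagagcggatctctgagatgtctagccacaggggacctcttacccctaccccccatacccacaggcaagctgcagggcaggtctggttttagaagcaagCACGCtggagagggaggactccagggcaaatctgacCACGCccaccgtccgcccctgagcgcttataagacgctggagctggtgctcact
Egln3: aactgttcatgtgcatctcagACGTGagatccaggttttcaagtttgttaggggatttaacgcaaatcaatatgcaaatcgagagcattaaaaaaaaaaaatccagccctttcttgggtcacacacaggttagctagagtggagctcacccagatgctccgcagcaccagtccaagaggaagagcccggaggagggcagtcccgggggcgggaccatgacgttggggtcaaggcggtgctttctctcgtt
Hk2: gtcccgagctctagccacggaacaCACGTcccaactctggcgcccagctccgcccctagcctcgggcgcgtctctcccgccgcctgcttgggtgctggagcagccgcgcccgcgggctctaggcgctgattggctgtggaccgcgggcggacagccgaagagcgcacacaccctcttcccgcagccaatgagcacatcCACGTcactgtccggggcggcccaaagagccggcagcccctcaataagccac
Ero1a held ACGTG at position -63 and GCGTG at -128 and -88, counted from the start of transcription to the leftmost base of the match. Adm held GCGTG at -90 and -54 and no ACGTG, Egln3 held ACGTG at -229, and Hk2 held ACGTG at -226 and -52. RefSeq windows of 300 bases, from 250 before to 50 after the start, were matched to 9 of the 10 genes, in 11 windows. ACGTG was present in 7 of the 11 windows against 19.6% of all 32851 promoter windows, and ACGTG or GCGTG in 9 of the 11 against 43.8%. The genes were listed as hypoxia-induced and several of these windows are rich in G and C (80.3% for Ero1a, 67.3% for Hk2), so these shares are a description of the letters. The letters were present both in genes that rose and in the gene that fell.

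The deposited values are log2 levels with a floor of 2.077, and the 10 genes lay far above it, with means between 10.06 for Vegfa and 13.93 for Slc2a1. Changes below are log2 differences from a limma model with a term per group and for the experiment, with their standard error (SE), and a gene is said to have risen or fallen where its Benjamini-Hochberg adjusted p (adj. p) over all genes tested was under 0.05. No array was a copy of another (highest correlation 0.99826), and array medians lay between 4.60 and 4.77. Colonocyte markers were high in every array (mean of 10 markers 12.43 to 13.61). Markers of exocrine pancreas (2.17 to 13.40) and of skeletal muscle (3.53 to 12.41) varied widely between arrays within groups. A label of naive replicate 1 names a treatment against its title, and the array was analysed as naive. These are whole pieces of colon, in which fewer cells of a type and less RNA per cell cannot be told apart.

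Of the 10 genes, 5 rose and 1 fell in colitis. Ero1a, Adm, Bnip3, Egln3 and Hif1a rose in untreated colitic against naive mice, Hk2 fell, and Vegfa, Slc2a1, Pdk1 and Ndrg1 did not pass the test. This comparison called 47.8% of all genes, so that 6 of 10 called is near the background. By direction, 22.2% of all genes rose and 25.6% fell. The median change of the 10 genes was 0.12, against -0.01 over all genes.

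**Figure D1:**
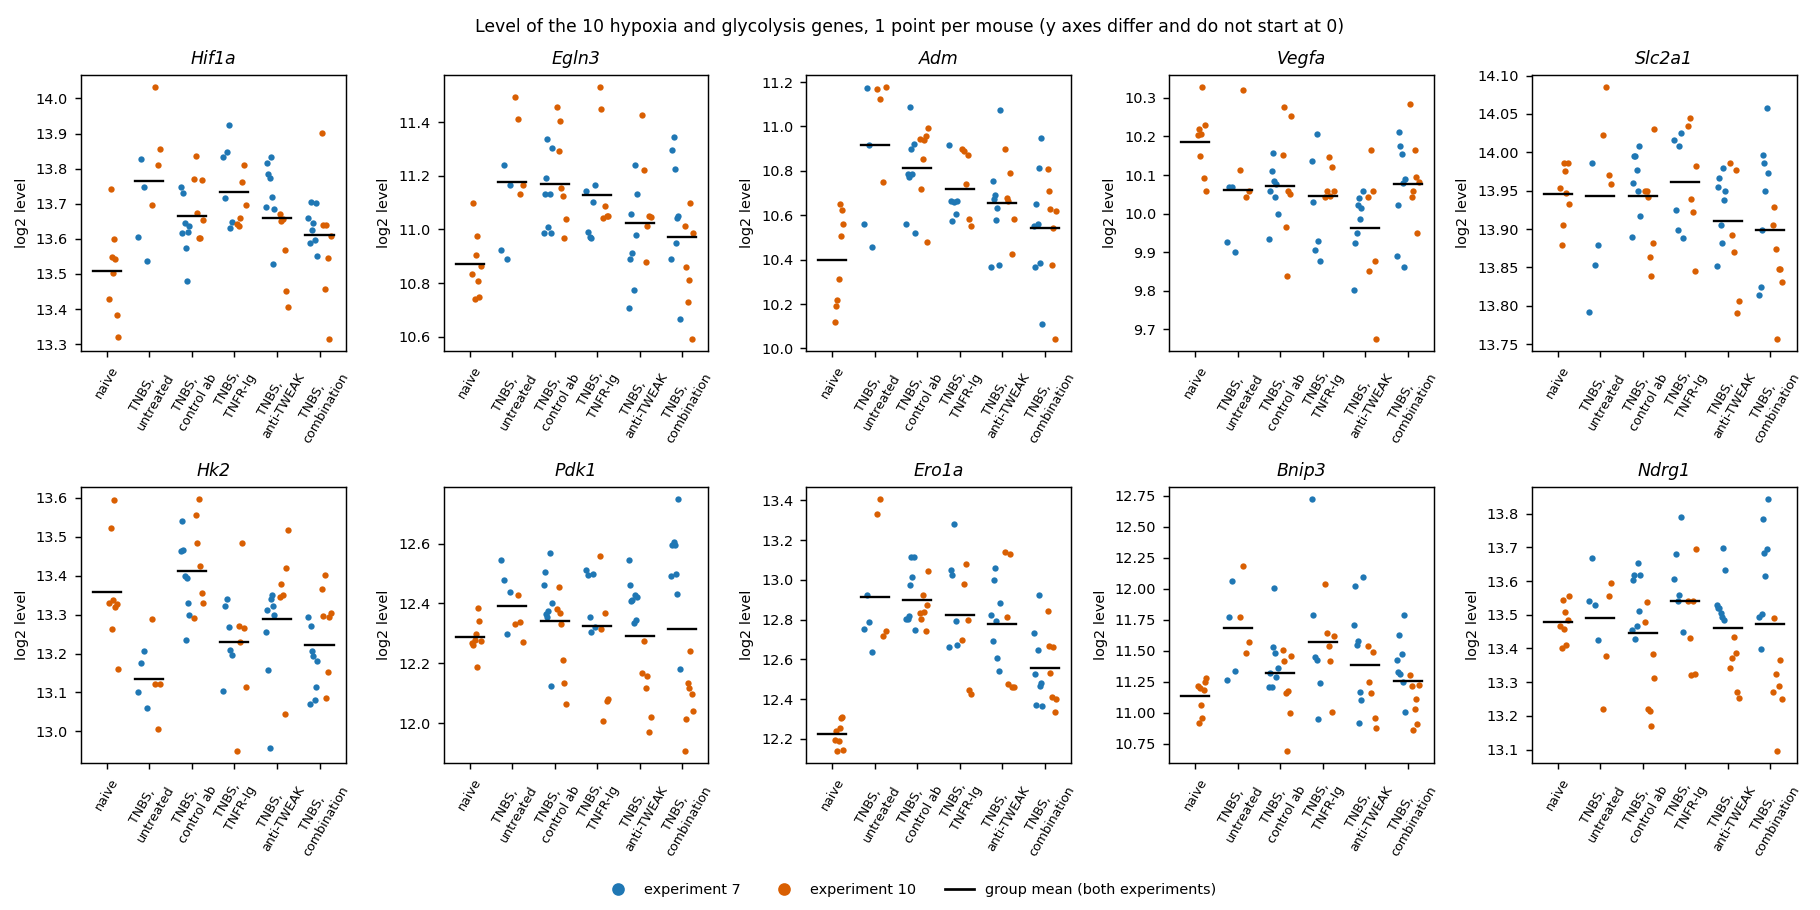
Log2 level (y axis, a separate scale per gene that does not start at 0) of the 10 genes in every mouse, by group (x axis), with experiment 7 in blue, experiment 10 in orange and a line at each group's mean. For Ero1a the 8 naive mice, at 12.14 to 12.31, lie below every colitic mouse, and Slc2a1 lies between 13.76 and 14.08 in all 72 mice.

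Among the oxygen-sensing genes, Hif1a encodes the regulated alpha subunit of HIF-1. Its level ran from 13.32 to 13.74 in naive mice (median 13.52) and from 13.54 to 14.03 in untreated colitic mice (median 13.78). It rose by 0.24 ± 0.06 (SE, 18.5%; adj. p 9.74e-04), with an overlap between the groups. Egln3, the prolyl hydroxylase that is itself a HIF target, ran from 10.74 to 11.10 in naive (median 10.85) and from 10.89 to 11.49 in untreated mice (median 11.17). It rose by 0.34 ± 0.09 (1.26-fold; adj. p 0.00249), and the lower untreated mice lay within the naive range.

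The genes for secreted factors parted. Adm encodes adrenomedullin, a peptide that widens vessels and tightens endothelium. Its level was 10.12 to 10.65 in naive (median 10.41) and 10.46 to 11.18 in untreated mice (median 11.02), a rise of 0.55 ± 0.11 (1.46-fold; adj. p 2.64e-05). Apart from 2 low untreated mice of experiment 7, at 10.46 and 10.56, untreated mice were above all naive mice. Vegfa, the main growth factor for vessels, was 10.06 to 10.33 in naive (median 10.21) and 9.90 to 10.32 in untreated mice (median 10.06). It changed by -0.10 ± 0.06 (95% interval -0.22 to 0.01; adj. p 0.138), which did not pass, although without replicate 2 of the untreated mice of experiment 10 it would have (-0.14, adj. p 0.042).

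Of the 3 genes for glucose use, Hk2 was the gene called in colitis. Hk2 encodes hexokinase 2, which traps glucose in the cell by phosphorylating it. It ran from 13.16 to 13.59 in naive (median 13.33) and from 13.01 to 13.29 in untreated mice (median 13.12), and fell by 0.20 on the log2 scale (SE 0.06; adj. p 0.00714). Slc2a1, the glucose transporter GLUT1, was 13.88 to 13.99 in naive (median 13.95) and 13.79 to 14.08 in untreated mice (median 13.97). Its change of -0.01 ± 0.04 once the experiment was allowed for (95% interval -0.09 to 0.06, adj. p 0.80) was the smallest in size of the 10. In experiment 10 alone the change of Slc2a1 was 0.06 ± 0.04 (adj. p 0.199). Pdk1, the kinase that inhibits pyruvate dehydrogenase, was 12.19 to 12.38 in naive (median 12.28) and 12.27 to 12.55 in untreated mice (median 12.38), a change of -0.02 ± 0.07 once the experiment was allowed for (95% interval -0.16 to 0.12; adj. p 0.866).

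Ero1a showed the greatest rise of the 10. It encodes the oxidase that drives disulfide formation in the endoplasmic reticulum (ER). Its level was 12.14 to 12.31 in naive (median 12.22) and 12.64 to 13.41 in untreated mice (median 12.77), and it rose by 0.68 ± 0.11 (1.60-fold; adj. p 4.49e-07). It was the only gene of the 10 whose naive and untreated mice did not overlap. Bnip3 encodes a BH3-only protein of the mitochondrial outer membrane that marks mitochondria for removal. It ran from 10.92 to 11.28 in naive (median 11.20) and from 11.27 to 12.18 in untreated mice (median 11.67), and rose by 0.46 ± 0.17 (1.37-fold; adj. p 0.0186). This rise rests in part on replicate 2 of the untreated mice of experiment 10, at 12.18, without which it was 0.36 (adj. p 0.074). Ndrg1, a stress-responsive gene of differentiating epithelium, was 13.40 to 13.55 in naive (median 13.48) and 13.22 to 13.67 in untreated mice (median 13.54). Once the experiment was allowed for, its change was -0.09 ± 0.06 and did not pass (95% interval -0.21 to 0.03, adj. p 0.205). In experiment 10 alone it was -0.04 ± 0.07.

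Inside experiment 10, which holds the naive mice, the same 6 genes were called, a count given without the share of all genes called in that fit. The changes there were 0.83 for Ero1a, 0.66 for Adm, 0.62 for Bnip3, 0.43 for Egln3, 0.34 for Hif1a and -0.22 for Hk2, each at least as large as in the model of both experiments. Neutrophil markers moved with these changes. Of 12 listed markers, such as S100a8, Csf3r and Cxcr2, 8 were tested and all 8 rose in colitis, and Ngp and Camp lay within 0.1 of the floor in most arrays. The mean level of the 8 markers was 2.45 to 4.16 in naive and 8.08 to 11.32 in untreated mice, and monocyte and macrophage markers rose as well (10 of 10). Their part in the changes of the 10 genes was not tested.

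Hk2 differed between the 2 kinds of colitic control. Mice given the control antibody had Hk2 at 13.23 to 13.60 (median 13.40), above the 13.01 to 13.29 of untreated colitic mice but for a small overlap. The difference was 0.28 ± 0.05 (1.21-fold; adj. p 0.00112), which placed control antibody mice near naive mice (13.16 to 13.59). The value was 0.25 ± 0.06 in experiment 7, where it did not pass (adj. p 0.08), and 0.30 ± 0.09 in experiment 10 (adj. p 0.0174). Hk2 was the 1 gene of 10 called, against 10.3% of all genes. Bnip3 differed by -0.37 ± 0.14 (adj. p 0.0805). In experiment 10 alone this was -0.55 ± 0.15 and passed (adj. p 0.0146), in experiment 7 it was -0.19 ± 0.24 (adj. p 0.902), and the test of the difference between experiments did not pass (-0.36 ± 0.28, adj. p 0.582). It also passed over both experiments without any of 3 arrays: untreated replicates 1 (-0.44, adj. p 0.0409) and 5 (-0.43, adj. p 0.0336) and control antibody replicate 5 (-0.41, adj. p 0.0412), all of experiment 7. The other 8 genes lay between -0.10 (Hif1a) and 0.01 (Vegfa). Beside this, 9 of 10 macrophage markers and 3 of 8 neutrophil markers were lower with the control antibody, and their part was not tested.

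TNFR-Ig by itself left 9 of the 10 genes without a call. Against the control antibody, Hk2 fell by 0.18 on the log2 scale (SE 0.05; adj. p 0.0165), from 13.23 to 13.60 under the control antibody to 12.95 to 13.48 (median 13.25) under TNFR-Ig, with wide overlap, while 4.08% of all genes were called. Beside this, 5 of 10 macrophage and 0 of 8 neutrophil markers were higher with TNFR-Ig, and their part was not tested. The other 9 genes lay between -0.10 ± 0.08 (Adm, adj. p 0.508) and 0.25 ± 0.12 (Bnip3, adj. p 0.227). Without replicate 1 of the TNFR-Ig mice of experiment 10 the fall of Hk2 was -0.16 (adj. p 0.0549), and in neither experiment alone did it pass (-0.15, adj. p 1.00, and -0.21, adj. p 0.0529). Against untreated mice, which like TNFR-Ig mice had no antibody, Hk2 was instead higher by 0.09 ± 0.06 (adj. p 0.381). In limma 0 of the 10 were called there, against 3.01% of all genes. At an unadjusted p under 0.05 there was 1 of the 10, Adm (-0.20 ± 0.10, adj. p 0.261), against 17.7% of all genes.

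Anti-TWEAK by itself called none of the 10 in limma against the control antibody, while 2.80% of all genes were called. At an unadjusted p under 0.05 there were 3 of the 10, against 16.7% of all genes. These were Hk2 (-0.12 ± 0.04, adj. p 0.135), Vegfa (-0.11 ± 0.04, adj. p 0.159) and Egln3 (-0.14 ± 0.07, adj. p 0.27). The 95% intervals of all 10 changes lay between -0.31 and 0.30. For Ero1a the interval was -0.28 to 0.03.

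With TNFR-Ig and anti-TWEAK together, 4 of the 10 genes fell against the control antibody: Ero1a, Adm, Egln3 and Hk2. The comparison called 31.2% of all genes, so this share too is near the background. By direction, 17.0% of all genes fell and 14.2% rose, and none of the 10 rose. Ero1a was 12.34 to 12.92 with the combination (median 12.52) against 12.74 to 13.12 with the control antibody (median 12.84). It fell by 0.34 on the log2 scale (SE 0.08, 1.27-fold lower; adj. p 6.89e-04), and the highest combination mice overlapped the control antibody range. Adm was 10.04 to 10.95 (median 10.56) against 10.48 to 11.09 (median 10.85), and fell by 0.27 (SE 0.08, 1.21-fold lower; adj. p 0.00533). Egln3 was 10.59 to 11.34 (median 10.99) against 10.97 to 11.46 (median 11.13), and fell by 0.20 (SE 0.07, 1.15-fold lower; adj. p 0.0204). Hk2 was 13.07 to 13.40 (median 13.21) against 13.23 to 13.60 (median 13.40), and fell by 0.19 (SE 0.04, 1.14-fold lower; adj. p 0.00104). The other 6 did not pass, at -0.06 ± 0.12 for Bnip3, -0.05 ± 0.04 for Hif1a, -0.04 ± 0.03 for Slc2a1, -0.03 ± 0.05 for Pdk1, 0.03 ± 0.04 for Ndrg1 and 0.01 ± 0.04 for Vegfa. The falls of Ero1a, Adm and Egln3 ran opposite to colitis, and that of Hk2 ran the same way as colitis, toward the level of untreated mice.

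The experiments shared these directions but not every call. For Ero1a the change was -0.36 ± 0.09 in experiment 7 (adj. p 0.0169) and -0.31 ± 0.12 in experiment 10 (adj. p 0.0583), and for Hk2 -0.21 ± 0.05 (adj. p 0.0124) and -0.16 ± 0.07 (adj. p 0.12). For Adm it was -0.24 ± 0.11 (adj. p 0.15) and -0.31 ± 0.11 (adj. p 0.0403), and for Egln3 -0.08 ± 0.08 (adj. p 0.587) and -0.34 ± 0.09 (adj. p 0.0142). Pdk1 went apart, at 0.12 ± 0.06 in experiment 7 (adj. p 0.182) and -0.20 ± 0.07 in experiment 10 (adj. p 0.0386), but the test of that difference did not pass (-0.32 ± 0.09, adj. p 0.17). None of the 10 genes was called in the tests of a difference between experiments, which called 0.0319% of all genes for the combination, 1.72% for anti-TWEAK, 0% for TNFR-Ig and 0.0160% for the control antibody. At an unadjusted p under 0.05 there were, in the same order, 2, 2, 0 and 1 of the 10, against 9.57%, 19.9%, 10.4% and 13.2% of all genes. Neutrophil markers were also lower with the combination (6 of 8 called), at a mean level of 3.77 to 8.68 against 5.94 to 10.77 with the control antibody, while 1 of 10 macrophage markers was called, and their part was not tested.

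**Figure D2:**
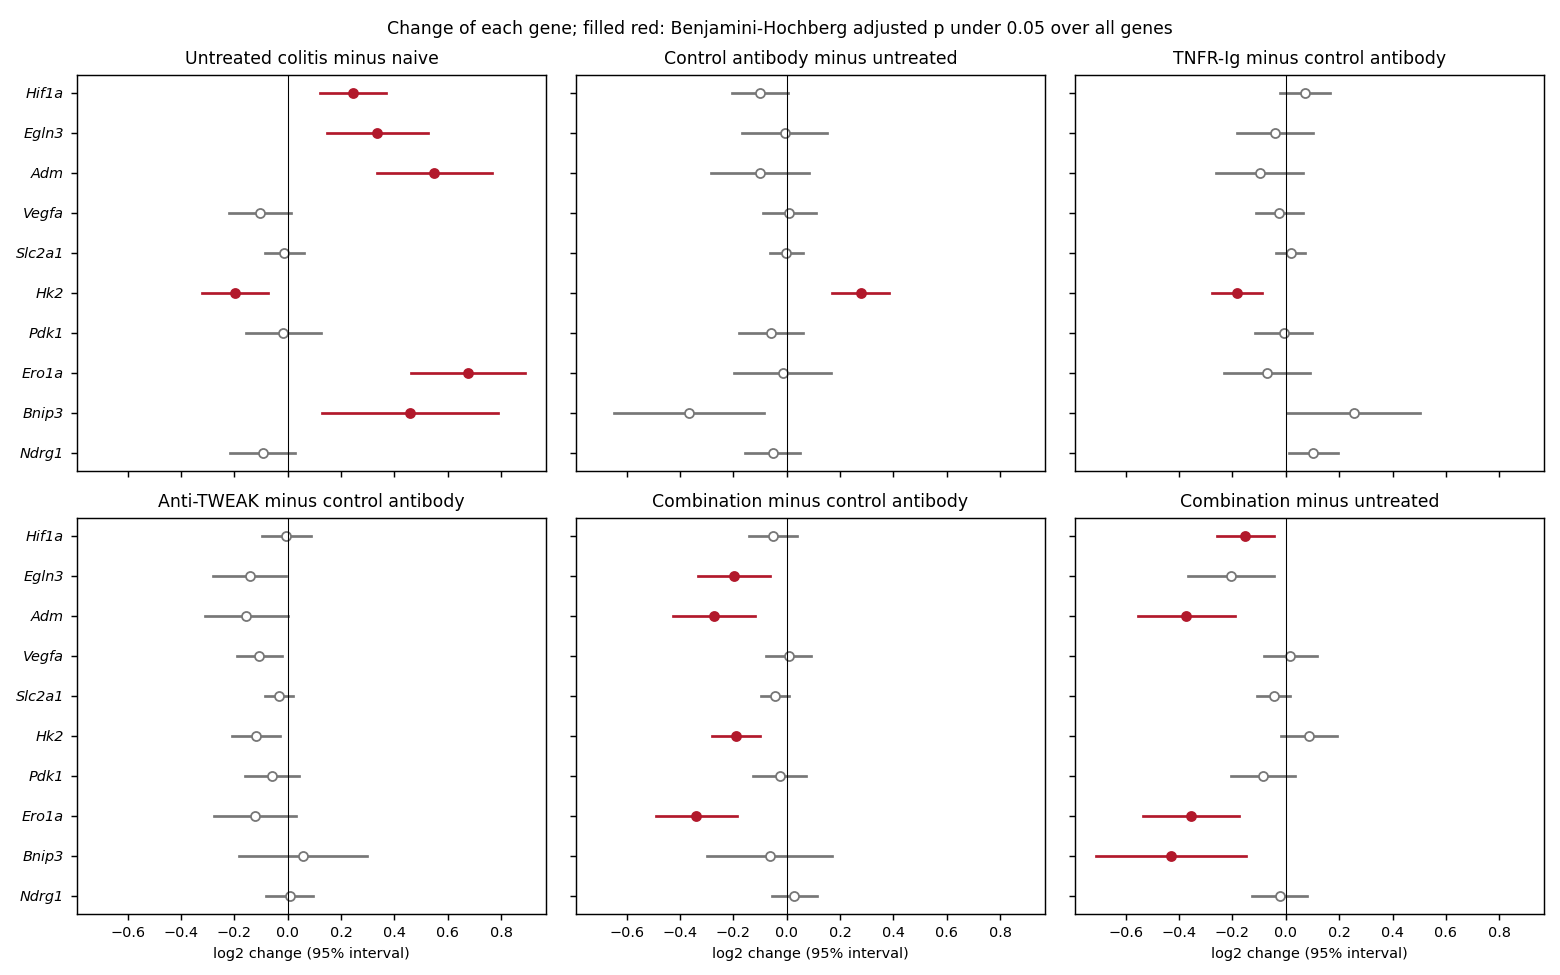
Log2 change of each gene (point) with its 95% interval (bar) in 6 comparisons, filled red where the adjusted p over all genes was under 0.05. In the comparison with the control antibody, Ero1a fell by 0.34, Adm fell by 0.27, Egln3 fell by 0.20 and Hk2 fell by 0.19 on the log2 scale with the combination, and Hk2 is the gene that differs between the control antibody and untreated mice.

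Which genes were called depended on the control. Combination mice received an antibody at 10 mg/kg and untreated mice received none, so these groups also differ in that. Against untreated mice the combination again lowered 4 of the 10, with 24.6% of all genes called (10.6% lower and 13.9% higher): Bnip3 fell by 0.43 (SE 0.14; adj. p 0.0199), Adm by 0.37 (SE 0.09; adj. p 0.00205), Ero1a by 0.36 (SE 0.09; adj. p 0.00295) and Hif1a by 0.15 (SE 0.05; adj. p 0.0292). Egln3 missed the threshold at -0.21 ± 0.08 (adj. p 0.0513), and Hk2 was 0.09 ± 0.05 higher and not called (adj. p 0.231). The 2 comparisons share the combination mice, so the calls of Adm and Ero1a in both are not independent of each other. Against untreated mice the control antibody alone gave -0.37 ± 0.14 for Bnip3 (adj. p 0.0805), -0.10 for Hif1a and Adm, and -0.02 for Ero1a, without a call. Combination and control antibody mice differed in Bnip3 by -0.06 ± 0.12. Bnip3 lost its call without either of 2 high untreated mice, replicate 3 of experiment 7 (-0.39, adj. p 0.0517) and replicate 2 of experiment 10 (-0.34, adj. p 0.0818). Skeletal muscle markers stood at 11.33 and 8.77 in those 2 mice, and their part was not tested. Hif1a lost its call without any of 4 mice, the smallest fall being -0.11 (adj. p 0.135) without replicate 2 of the untreated mice of experiment 10. The others were untreated replicate 2 of experiment 7 (-0.14, adj. p 0.0595), and untreated replicate 5 (-0.14, adj. p 0.0701) and combination replicate 7 (-0.13, adj. p 0.0594) of experiment 10. Egln3 gained a call without any of 8 mice, at -0.21 to -0.24: untreated replicates 1 and 3 and combination replicates 2, 3, 4 and 7 of experiment 7, and untreated replicate 3 and combination replicate 6 of experiment 10. Experiment 10 alone called 7 of the 10, with Bnip3 at -0.66, Adm at -0.52, Ero1a at -0.50 and Egln3 at -0.43. Experiment 7 alone, with 4 untreated mice, called none (Ero1a -0.21, Adm -0.23, Bnip3 -0.21, Egln3 0.00). These 2 counts are given without the share of all genes called in the same fit, so they do not set the 10 genes apart from other genes. In the fit of both experiments 8 of 8 neutrophil, 10 of 10 macrophage and 5 of 7 endothelial markers were lower and 7 of 10 colonocyte markers higher, and their part was not tested.

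Set against each agent alone, the combination lowered Ero1a against TNFR-Ig and gave no call against anti-TWEAK. TNFR-Ig mice received no antibody, so they differ from combination mice both in anti-TWEAK and in having received an antibody at all. Against TNFR-Ig, Ero1a fell by 0.27 (SE 0.08; adj. p 0.0314), the 1 gene of 10 called with 6.71% of all genes. At an unadjusted p under 0.05 there were 6 of the 10, against 23.3% of all genes: Ero1a, Hif1a, Bnip3, Adm (-0.17 ± 0.08, adj. p 0.177), Egln3 (-0.16 ± 0.07, adj. p 0.166) and Slc2a1 (-0.06 ± 0.03, adj. p 0.155), all lower with the combination. Beside this, 7 of 8 neutrophil, 5 of 10 macrophage and 4 of 7 endothelial markers were lower, with neutrophil markers at a mean level of 3.77 to 8.68 against 7.01 to 10.13 with TNFR-Ig, and their part was not tested. Leaving out any of 10 mice ended that call, at -0.23 to -0.26 and with adj. p of up to 0.0655. These were TNFR-Ig replicates 2, 3 and 4 and combination replicates 3, 6 and 8 of experiment 7, and TNFR-Ig replicates 4 and 5 and combination replicates 5 and 7 of experiment 10. Hif1a (-0.12 ± 0.05, adj. p 0.0993) gained a call without combination replicate 1 of experiment 10 (-0.15, adj. p 0.0371), and Bnip3 (-0.32 ± 0.12, adj. p 0.107) without TNFR-Ig replicate 5 of experiment 7 (-0.38, adj. p 0.0417). For Ero1a neither experiment alone passed (-0.35, adj. p 0.0947, in experiment 7, and -0.19, adj. p 0.429, in experiment 10), while experiment 10 alone called Egln3 (-0.33, adj. p 0.0375) and Bnip3 (-0.45, adj. p 0.0429). Against anti-TWEAK, limma called 0 of the 10 and 0% of all genes, with 2 of the 10 and 18.0% of all genes at an unadjusted p under 0.05. The 2 were Ero1a (-0.22 ± 0.08, adj. p 0.162) and Vegfa (0.11 ± 0.04, adj. p 0.18).

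In order of mean level, Ero1a stood at 12.91 ± 0.29 (SD) in untreated, 12.90 ± 0.13 in control antibody, 12.83 ± 0.26 in TNFR-Ig, 12.78 ± 0.25 in anti-TWEAK, 12.56 ± 0.18 in combination and 12.22 ± 0.07 in naive mice. The steps among the highest 4 groups were smaller than the SDs, that from anti-TWEAK to the combination lay between the SDs of the pair, and that down to naive mice was larger. Adm had the same order, at 10.92 ± 0.29, 10.81 ± 0.18, 10.72 ± 0.14, 10.66 ± 0.19, 10.54 ± 0.25 and 10.40 ± 0.21, with each step between neighbours smaller than their SDs. Bnip3 was ordered otherwise, with TNFR-Ig mice (11.57 ± 0.47) next to untreated mice (11.68 ± 0.33), and control antibody mice (11.32 ± 0.29) between anti-TWEAK (11.39 ± 0.39) and combination mice (11.26 ± 0.26). Naive mice were lowest at 11.13 ± 0.14, and neighbours in this order lay within their SDs. Hk2 ran from 13.41 ± 0.11 in control antibody mice through naive (13.36 ± 0.14), anti-TWEAK (13.29 ± 0.15), TNFR-Ig (13.23 ± 0.13) and combination mice (13.22 ± 0.11) to 13.14 ± 0.09 in untreated mice, again in steps within the SDs. Bnip3 was also the most variable of the 10 within groups (pooled SD 0.34, against 0.07 for Slc2a1), and its highest value of all was 12.72 in a TNFR-Ig mouse of experiment 7. Skeletal muscle markers stood at a mean of 12.21 in that mouse. They were highest, at 12.41, in a combination mouse of experiment 7 with Bnip3 at 11.63, and their part was not tested.

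How far the combination remained from health was measured inside experiment 10. There 1 gene was still higher than in naive mice and 3 were lower, with 29.4% of all genes called (16.9% higher and 12.5% lower). Ero1a was 12.34 to 12.84 with the combination (median 12.53) and 12.14 to 12.31 in naive mice, with no overlap, a difference of 0.33 ± 0.11 (1.26-fold; adj. p 0.0149). Without combination replicate 1 the difference was 0.28 (adj. p 0.0552). Adm (0.13 ± 0.11, adj. p 0.367), Hif1a (0.08 ± 0.06, adj. p 0.322), Egln3 (-0.0020 ± 0.09, 95% interval -0.18 to 0.18) and Bnip3 (-0.04 ± 0.17, 95% interval -0.37 to 0.30) did not pass. Pdk1 fell by 0.21 (SE 0.06; adj. p 0.0117), Ndrg1 by 0.18 (SE 0.06; adj. p 0.0177) and Slc2a1 by 0.09 (SE 0.03; adj. p 0.0384), 3 genes that untreated colitis had left without a call. Ndrg1 lost its call without combination replicate 5 (-0.15, adj. p 0.0603). Slc2a1 lost it without any of 8 of these 15 mice, naive replicates 1, 4, 5 and 7 and combination replicates 5 to 8 (-0.07 to -0.09, adj. p 0.0508 to 0.103). Of the 8 neutrophil markers 3 were higher than in naive mice, and of the 10 macrophage markers 8. The difference between the 3 prime and 5 prime probe sets of Actb, a measure of RNA quality, was 1.12 to 1.5004 in these combination mice and 1.00 to 1.14 in naive mice, and its part was not tested.

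Pdk1 and Ndrg1 were also the genes called between the experiments, which nearly coincide with the array runs. All 38 arrays of experiment 10 and 2 of the 34 of experiment 7 belong to the same run, so that experiment and run can hardly be told apart. Without those 2 arrays the differences were -0.23 (Pdk1) and -0.19 (Ndrg1). Averaged over the 5 colitic groups, Pdk1 was lower in experiment 10 than in experiment 7 by 0.23 (SE 0.03; adj. p 8.24e-08) and Ndrg1 was lower by 0.20 (SE 0.03; adj. p 3.92e-07), 2 of 10 genes against 40.7% of all genes. The gap is plain in combination mice, where Pdk1 ran from 12.18 to 12.75 in experiment 7 (median 12.55) and from 11.91 to 12.24 in experiment 10 (median 12.10). Both ends of the range in experiment 7 are the 2 arrays that share the run of experiment 10. The rest of experiment 7 lay between 12.43 and 12.60. Ndrg1 ran from 13.40 to 13.84 in combination mice of experiment 7 and from 13.10 to 13.49 in those of experiment 10, and 13.84 is again 1 of those 2 arrays. The Actb difference also parted these mice without overlap, at 0.98 to 1.11 in experiment 7 and 1.12 to 1.5004 in experiment 10, and its part was not tested. In untreated mice the gap was smaller, with Pdk1 at 12.30 to 12.55 and 12.27 to 12.43. The other 8 genes did not pass, with differences from -0.15 ± 0.08 for Bnip3 to 0.08 ± 0.04 for Egln3.

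Probe sets of 1 gene did not always give the same change. The 3 probe sets of Ero1a rose in colitis by 0.34, 0.46 and 0.68 and fell with the combination against the control antibody by 0.22, 0.34 and 0.54, and the 2 of Adm rose by 0.55 and 0.79 and fell by 0.27 and 0.51, all called over all probe sets. The brightest probe sets of Adm and of Ndrg1 are of a type that may bind related sequences, and the second of Adm is not. The 4 probe sets of Hif1a all moved up in colitis, and 3 passed (0.24, 0.34 and 0.52; the dimmest, 0.53 with adj. p 0.074). With the combination against the control antibody the brightest Hif1a probe set was not called (-0.05 ± 0.04) while the 2 dimmest fell, by 0.24 (adj. p 0.025) and 0.61 (adj. p 0.00531). Against untreated mice all 4 fell, by 0.15 to 0.72. For Egln3 the rise was seen with the brightest probe set alone, the other giving 0.03 ± 0.10. Pdk1 fell in colitis by 0.49 (adj. p 0.00224) on 1 of its 4 probe sets and was not called on the brightest, and between experiments 3 of its probe sets fell by 0.22, 0.23 and 0.53 while the fourth rose by 0.14 (adj. p 0.0227). Ndrg1 fell in colitis by 0.41 (adj. p 0.0453) on the dimmest of its 5 probe sets, and all 5 were lower in experiment 10, by 0.20 to 0.44. Hk2 and Bnip3 have 1 probe set each.

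**Figure D3:**
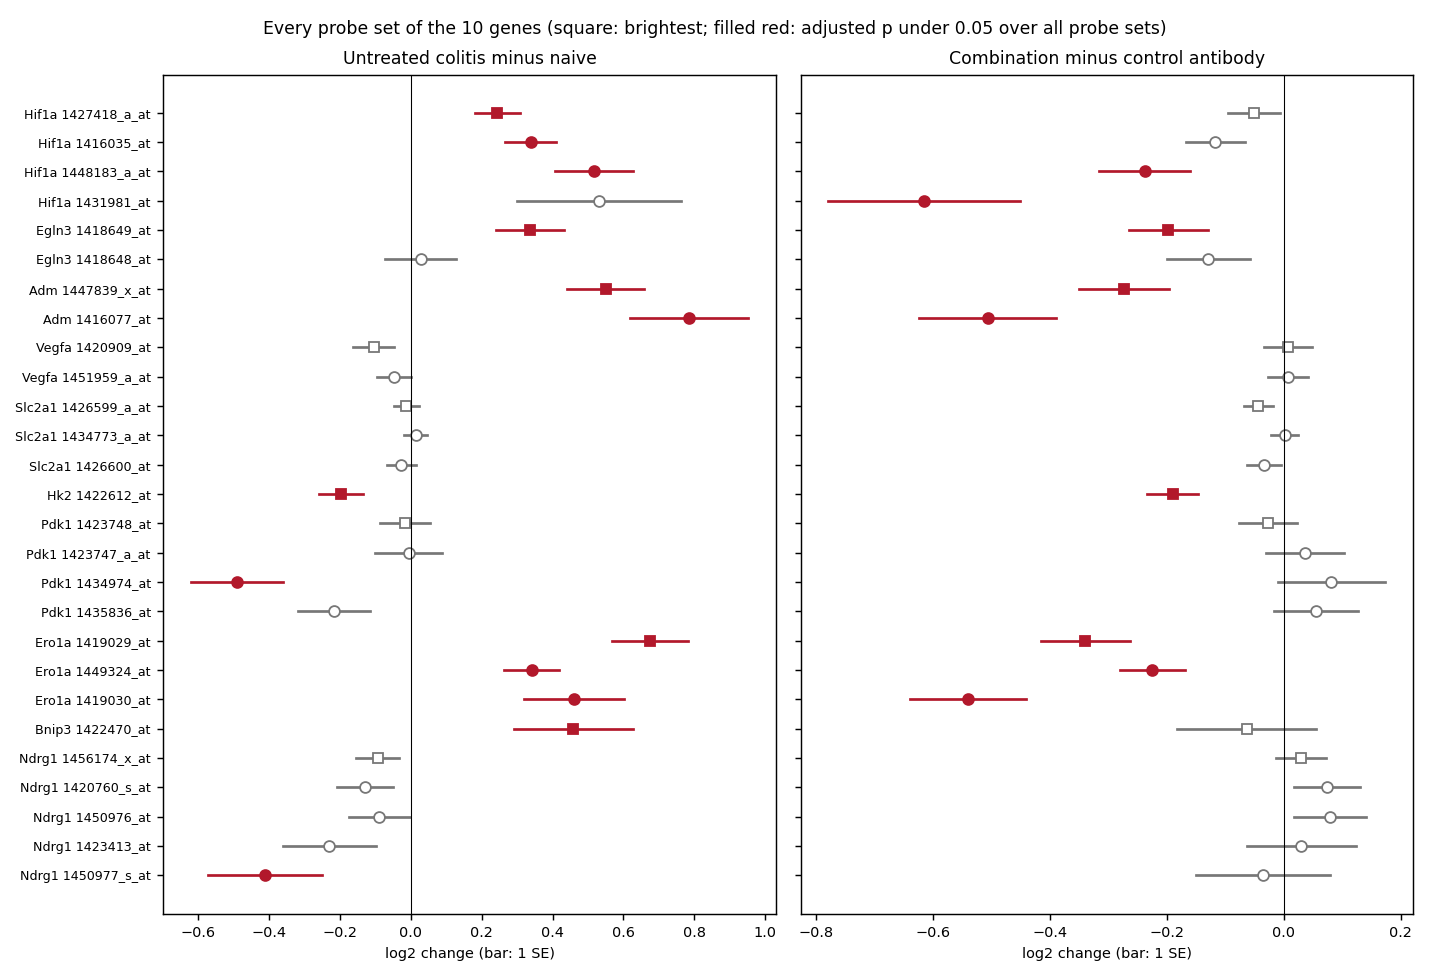
Log2 change (point) with 1 SE (bar) of all 27 probe sets of the 10 genes in untreated colitis against naive mice (left) and in the combination against the control antibody (right), the brightest set of a gene as a square and red where the adjusted p over all probe sets was under 0.05. The sets of Ero1a and Adm all lie on the same side and are red in both panels, whereas those of Hif1a, Egln3, Pdk1 and Ndrg1 differ in size or call.

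Other genes of the pathway, from lists that were made with results of these data known, moved in both directions in colitis, where 22.2% of all genes rose and 25.6% fell. Of 8 tested genes of HIF and oxygen sensing, Hif3a rose by 2.04 ± 0.52, and Cited2, a HIF inhibitor, and Epas1, the HIF-2 alpha subunit, fell by 0.30 and 0.15. The hydroxylases Egln1 and Egln2, Vhl and Arnt did not pass. Among 15 glycolytic enzymes 4 rose and 1 fell. Pfkfb3, which makes the activator of phosphofructokinase, rose by 1.60 ± 0.33, Hk3 by 0.59 ± 0.12 and Pgam1 by 0.24 ± 0.05, and Eno2 fell by 0.30. Pkm and Ldha did not pass (-0.02 ± 0.05 and 0.00 ± 0.04). Of 6 glucose and lactate carriers 3 rose and 2 fell. Slc16a3, the lactate exporter MCT4, rose by 3.62 ± 0.44 (12.3-fold; adj. p 4.67e-10) and Slc2a3, the transporter GLUT3, by 2.06 ± 0.49, while the insulin-responsive Slc2a4 fell by 0.89 and the sodium-coupled Slc5a1 by 0.49. In the same mice the mean level of 8 neutrophil markers was 2.45 to 4.16 (naive) and 8.08 to 11.32 (untreated). The part of these markers in the changes of enzymes and carriers was not tested. Of 11 genes of pyruvate entry into mitochondria and of pyruvate use, Pdk3 and Pdhx rose by 0.26 and 0.25, and Pdk2 fell by 0.56.

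Of 22 other hypoxia-inducible genes 9 rose and 7 fell in colitis, and the median change of -0.10 stood against -0.01 over all genes. Angptl4, a lipase inhibitor, rose by 3.17 ± 0.40, the collagen-modifying enzymes Plod2 and P4ha2 by 1.93 ± 0.26 and 1.66 ± 0.22, and Edn1, the vasoconstrictor endothelin 1, fell by 1.51 ± 0.30. Receptors and partners of VEGF and adrenomedullin rose in 7 of 13 cases and fell in 1. Vegfd rose by 1.49 ± 0.33, Ramp2, which turns Calcrl into an adrenomedullin receptor, by 1.13 ± 0.18, Angpt2 by 0.94 ± 0.22 and Flt1 by 0.68 ± 0.17. Endothelial markers rose too (5 of 7), and their part was not tested. In ER oxidative folding, the pathway of Ero1a, 7 of 9 genes rose, led by Pdia4 (0.54 ± 0.10), Pdia6 (0.43 ± 0.11) and Hspa5 (0.39 ± 0.06), and Ddit3 fell by 0.34. Of 7 HIF-linked barrier genes none rose and 4 fell, among them the drug exporter gene Abcb1a by 0.75 ± 0.10, Ckb by 0.51 and Muc3 by 0.24, beside a fall of 8 of 10 colonocyte markers whose part was not tested. Of 7 genes listed with Bnip3 for mitophagy or by name, Bnip2 rose by 0.20 and Pink1 fell by 0.32. Of 3 relatives of Ndrg1, Ndrg4 and Ndrg3 fell by 0.39 and 0.21.

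With the combination, against the control antibody, 6 of the 15 glycolytic enzymes fell and none rose, where 17.0% of all genes fell and 14.2% rose. Pfkfb3 fell by 0.62 (SE 0.24), Pfkp by 0.15, Pgam1 by 0.15 and Pgk1 by 0.10. Slc16a3 fell by 1.29 ± 0.31 (2.45-fold lower; adj. p 0.00138) and Slc2a3 by 0.97 ± 0.35, while Slc5a1 rose by 0.12. Beside these changes, neutrophil markers stood at a mean level of 3.77 to 8.68 with the combination and 5.94 to 10.77 with the control antibody. Their part in the changes of enzymes and carriers was not tested. Of the 22 other hypoxia-inducible genes 6 fell, led by Plod2 (-0.77 ± 0.18), P4ha1 (-0.55 ± 0.11) and P4ha2 (-0.45 ± 0.16), and Zfp395 rose by 0.39. In ER folding 4 of 9 fell (Pdia4 -0.29, Pdia6 -0.26, Hspa5 -0.24, Pdia3 -0.08) and none rose. Of the 11 genes of pyruvate entry and use, Pdk2 and Ldhb rose by 0.35 and 0.28, and Pdhx and Dld fell by 0.34 and 0.09. In VEGF and adrenomedullin signalling Angpt1 and Ramp1 rose by 0.36 and 0.29 and none of 13 fell, so that Vegfd, Ramp2 and Angpt2, which rose in colitis, had no call here. The barrier genes Abcb1a and Muc3 rose by 0.38 and 0.07, Pink1 rose by 0.31, Ndrg4 by 0.23, and Arnt and Vhl by 0.11 and 0.08. The comparison of the combination with the control antibody shares no mice with that of untreated with naive mice. Both come from 1 fit with a shared experiment term and a shared estimate of spread, so they are not fully independent.

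**Figure D4:**
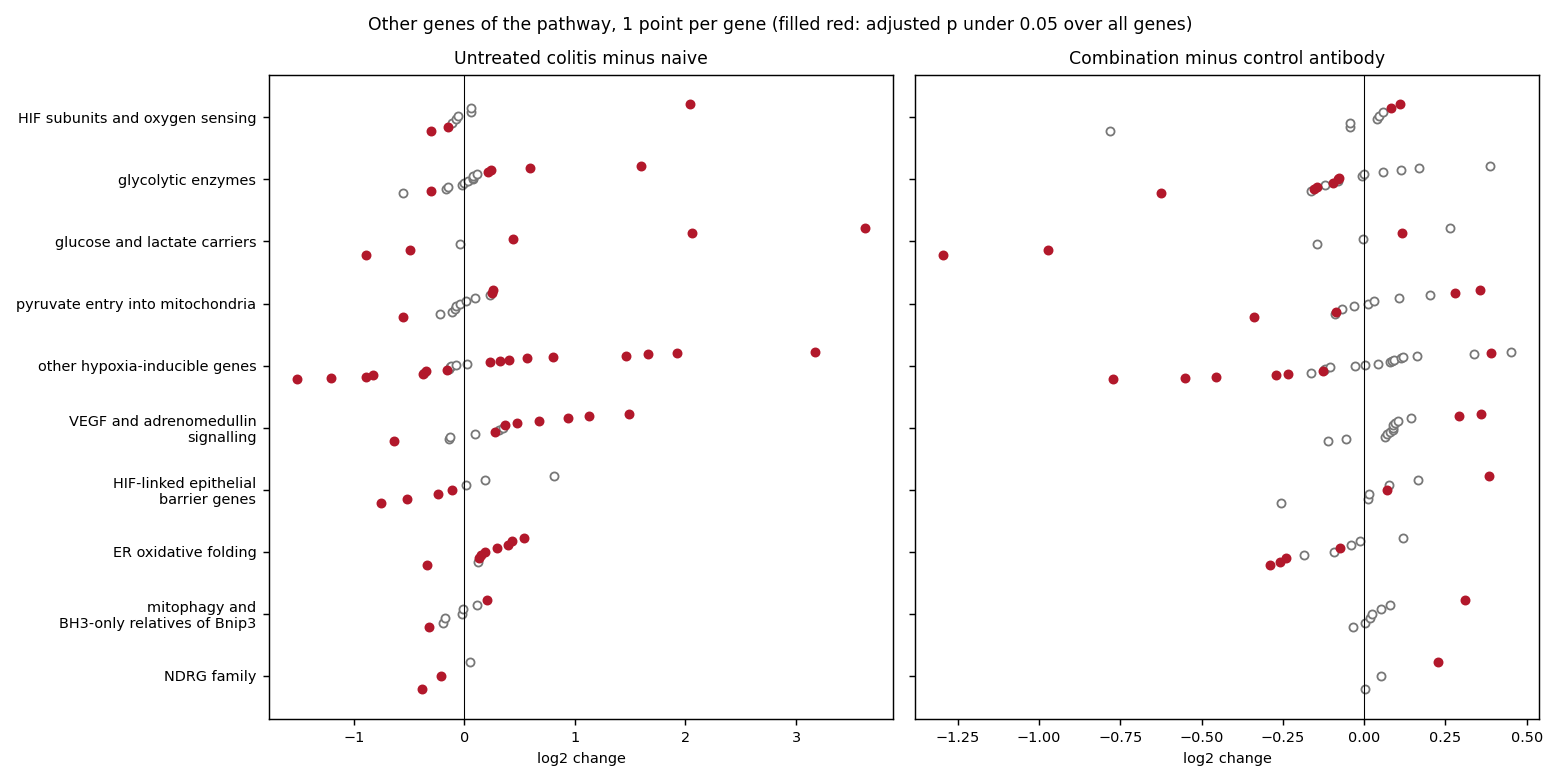
Log2 change (x axis, a separate scale per panel) of the other tested genes of the pathway, 1 point per gene in 10 lists (rows), in untreated colitis against naive mice (left) and in the combination against the control antibody (right), filled red where the adjusted p was under 0.05. Slc16a3 stands at 3.62 and -1.29, the far ends of the lists of carriers, and the ER folding genes lie mostly right of 0 on the left and left of 0 on the right.

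The 10 genes did not vary as a block from mouse to mouse. Over the 64 colitic arrays, after the mean of each group and experiment was subtracted, the median Pearson correlation of their 45 pairs was 0.16, from -0.30 to 0.57, and 2 pairs were above 0.5. These were Adm with Bnip3 (r = 0.57, Spearman's rho = 0.65, r = 0.56 without the 2 arrays farthest from the median) and Slc2a1 with Adm (0.51, 0.54 and 0.52). Hif1a followed Vegfa (0.49, 0.43 and 0.43) more than Egln3 (0.12). Hk2 and Bnip3 had the lowest value, -0.30. These correlations are descriptions, and the arrays share their tissue makeup and their processing.

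The genes whose pattern was most like that of a member were searched among the 12534, so their correlations are the highest of many. Predicted genes, clone names and olfactory receptor genes were left out of this search. For Ero1a they were Hcar2, Il1a, which encodes the cytokine interleukin 1 alpha, and Gadd45b (r = 0.83, 0.83 and 0.82; rho = 0.81, 0.82 and 0.84; 0.83, 0.84 and 0.83 without the 2 farthest arrays). Bnip3 ran closest with Slc7a2, an arginine transporter gene, Tmem38b and Map1lc3b, the autophagosome protein LC3B (r = 0.85, 0.84 and 0.83; rho = 0.81, 0.76 and 0.78; 0.80, 0.78 and 0.79). For Hif1a these were Dr1, Lrrfip1 and Srsf10 (r = 0.79, 0.79 and 0.74), for Adm Plat, Cd47 and Rab31 (0.71, 0.68 and 0.68), and for Egln3 Anxa8, Ubd and S100a14 (0.67, 0.67 and 0.64). For Pdk1 they were Gstp3, Snx5 and Nsa2 (0.73, 0.65 and 0.62), for Ndrg1 Prodh, Exoc3 and Creb3l3 (0.68, 0.58 and 0.56), and for Slc2a1 Bcl2l11, Nfkbia and Frmd3 (0.66, 0.56 and 0.55). Vegfa ran with Herc4, Synpo and Mmp12 (0.64, 0.62 and 0.61), and Hk2 with Mfsd2a, Fam98b and Piga (0.63, 0.58 and 0.57).

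Within groups, mice with more neutrophil markers had more Ero1a (r = 0.63, rho = 0.64, 0.61 without the 2 farthest arrays), Bnip3 (0.59, 0.68 and 0.57), Hif1a (0.50, 0.43 and 0.47) and Adm (0.49, 0.50 and 0.48), all over 64 arrays. For Egln3 r was -0.08 and for Hk2 -0.18. Bnip3 also went with skeletal muscle markers (0.62, 0.48 and 0.52) and against colonocyte markers (-0.61, -0.52 and -0.48), and Adm with endothelial markers (0.50, 0.47 and 0.38). The Actb difference had medians of 1.05 to 1.13 in the 6 groups and of 1.04 to 1.20 by group and experiment. Its Pearson correlations with the 10 genes lay between -0.24 for Pdk1 and 0.32 for Hif1a. By rho they lay between -0.30 for Ero1a and 0.24 for Hif1a. Without the 2 farthest arrays r lay between -0.37 for Ero1a and 0.21 for Hif1a, with -0.30 for Bnip3 and -0.29 for Adm.

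**Figure D5:**
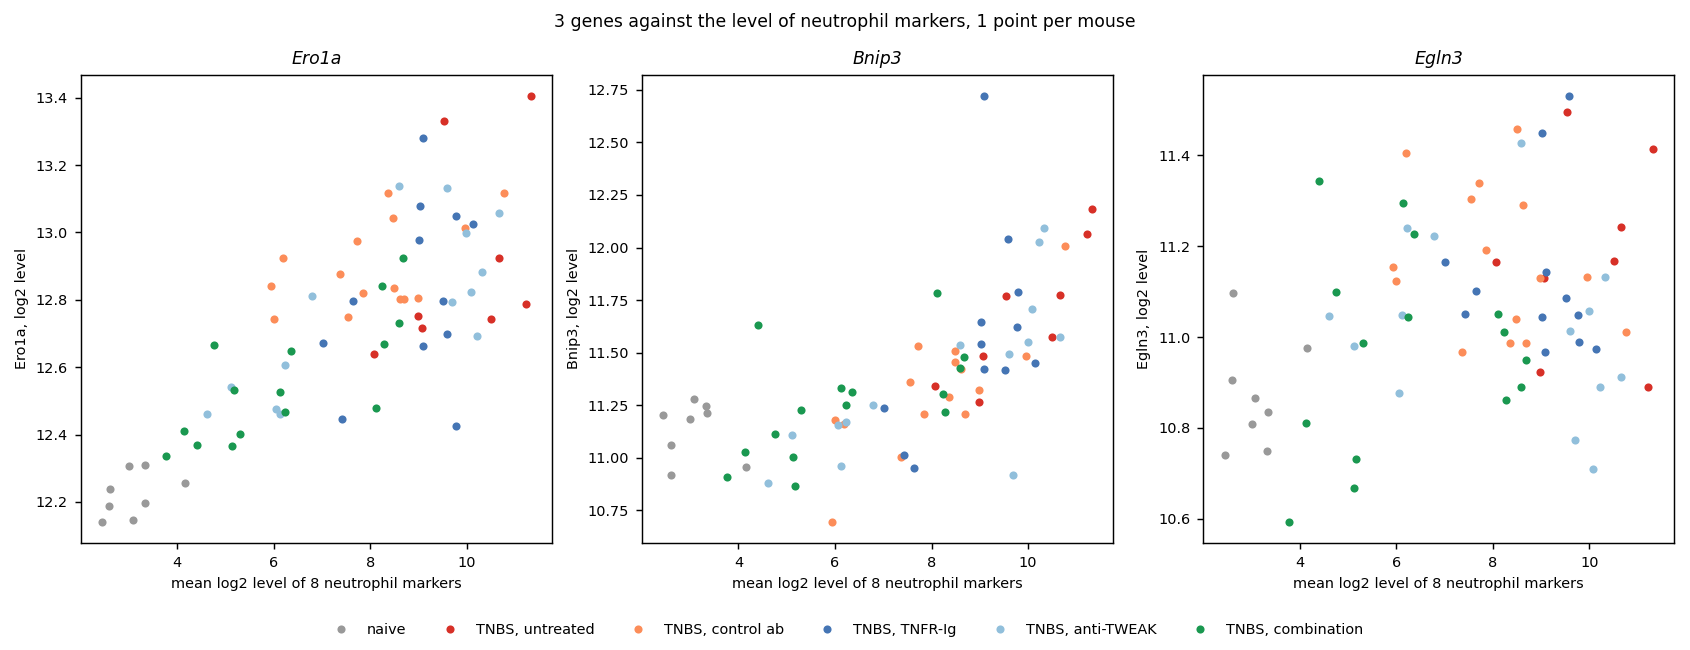
Log2 level of Ero1a, Bnip3 and Egln3 (y axes, which do not start at 0) against the mean log2 level of 8 neutrophil markers (x axis), 1 point per mouse, coloured by group. Ero1a and Bnip3 are higher in mice with more neutrophil markers (r = 0.63 and 0.59 within the colitic groups) while r was -0.08 for Egln3, and naive mice sit at 2.45 to 4.16 on the x axis.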

How the data were processed

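Deposited values are log2 levels per probe set and array, as deposited by the authors, with similar medians on all arrays. The submitters' processing notes list limma 3.4.5, R 2.11.1, GCRMA and RMA, without saying which produced these values. The log2 unit follows from the values, which run from 2.077 to 15.98. Array number limits the precision. Of 45101 probe sets, 34945 have 1 gene symbol in the platform annotation, 932 several and 9160 none, and 64 controls were left out. Symbols were updated by Entrez identifier (99.4% matched). Each gene is its probe set of highest mean, and genes whose mean lay under the 40th percentile (2.42) were not tested. Tests were two-sided, in limma 3.58.1 under R 4.3.3, with lmFit and eBayes on all 72 arrays, a term per group and for the experiment, and Benjamini-Hochberg adjustment over 12534 genes. Comparisons inside experiment 10, between experiments and of their differences used a term per group and experiment. The procedure was tested on simulated data. Alternatives tried were no filter, every probe set, no experiment term, a replicate block, each experiment alone, quantile normalization, array weights, the compared groups alone, trend and robust moderation, and leaving out arrays; a covariate for Actb was added after the data were seen. In each comparison members are named with their values or given by their range. Of each pathway list up to 4 called genes of the largest change are named in 2 comparisons, and other values stand for contrast, chosen after they were seen. For likeness, the 3 tested genes of highest correlation are named, with predicted genes, clone names and olfactory receptor genes left out. Members and lists were chosen with earlier results of these data known. Promoters are from RefSeq (GRCm38.p6). Figures were drawn with matplotlib 3.10.9.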

Additional observations from a re-analysis of the deposited data

How the results depend on the processing

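The counts of called members in colitis (6), in the combination against the control antibody (4), in the residual comparison (4) and between experiments (2) stayed within 1.5 times under the alternatives run on both experiments, other than leaving out single arrays. The counts below moved, and the cause was not tested. They are given without the share of all genes called in the same fit, so a change in count is not a result about the 10 genes. In experiment 7 alone the control antibody called 0 of the 10 against untreated mice, TNFR-Ig 0 and the combination 2 against the control antibody, and the combination 0 against untreated mice and 0 against TNFR-Ig. In experiment 10 alone these counts were 2, 0, 3, 7 and 2. Array weights gave 2 for the control antibody against untreated mice and 2 for the combination against TNFR-Ig. The latter count, 1, was 0 with every probe set tested, with the replicate block, with the compared groups alone and without the 2 arrays of another array run. Leaving out each array in turn gave 2 to 5 for the combination against untreated mice, 0 to 2 against TNFR-Ig, 0 to 1 for TNFR-Ig and 1 to 2 for the control antibody against untreated mice, 2 to 4 in the residual comparison, and constant counts elsewhere. Same-numbered mice did not deviate together (median r of -0.005 over 132 pairs, 0.007 over 921 pairs of other numbers), so the replicate block rests on numbers alone. With it, colitis called 6 and the combination 4 against the control antibody and 3 against untreated mice, where Hif1a (-0.12, adj. p 0.122) and Bnip3 (-0.39, adj. p 0.0604) lost their calls and Egln3 (-0.20, adj. p 0.0471) gained one. It also ended those of Ero1a against TNFR-Ig (-0.25, adj. p 0.0501) and of Slc2a1 in the residual comparison (-0.08, adj. p 0.0566). With the Actb covariate Bnip3 lost its call against untreated mice (-0.36, adj. p 0.0707). No called change reversed its direction under any alternative. The difference between experiments could not be fitted with the block, and the fits without an experiment term, of single experiments and of the compared groups alone were made for the comparisons between groups.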
